A study of Rattus norvegicus with 23 samples.

Results

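A set of 10 genes of the mesothelium and the epicardium were followed in the rat, over 4 regions of the heart and 2 thoracic vessels. They are Msln, Upk3b, Upk1b, Wt1, Bnc1, Lrrn4, Krt19, Tcf21, Aldh1a2 and Sall1. A probe was assigned to a gene through its accession, and the highest probe of the gene was read on each array. Of the 10 genes, 9 were measured, among 16544 genes for which a probe of the array could be named. No probe was matched to Upk3b, which has no value here. The genes were chosen with their signals on these arrays already known, and Sall1 because it stood out in LA, so their levels are given as a description and without a test.

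RNA was prepared from male Wistar rats, with no genetic or treatment groups, killed under pentobarbital with heparin. The 12 rats were 8 to 11 weeks old. There were 4 arrays of the left atrium next to the pulmonary vein (LA), 4 of the left ventricular mass (LV), 3 of the right ventricular free wall (RV), 4 of the sinoatrial node region (SA), 4 of the pulmonary vein (PV) and 4 of the pulmonary artery (PA). Tissue of 2 rats was pooled for an SA sample, and an LV mass was cut into 3 pieces that served as samples, so that some LV samples may come from 1 heart. The labels do not tie an array to an animal, and the p-values below measure the spread between these samples. LV and RV together, with equal weight, are called V.

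The mesothelium is a thin epithelial sheet that lines the body cavities and covers the organs in them. On the heart it is the epicardium, the outer cell layer of the atria and ventricles, which continues onto the roots of the great vessels. In the embryo, cells of this layer move into the wall and give rise to fibroblasts and vascular smooth muscle, a process in which Wt1, Tcf21 and retinoic acid made by Aldh1a2 take part. In a piece of tissue, more mesothelial cells and more RNA per mesothelial cell cannot be told apart.

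Levels are log2 of the normalized signal plus 1, and the level of one gene cannot be set against that of another. A spot was called well above background by the scanner software. The first of the 2 rows of arrays on each of the 3 slides had 72.7% to 79.8% of the probes well above background, and the second row had 58.6% to 69.4%. The array least like any other was RV replicate 2, with a Spearman correlation of 0.979 across genes with its nearest array, LV replicate 3. The regions were read against markers: the summed signal of 5 ventricular myocyte genes was 1106240 to 1459460 in the ventricles and at most 477307 elsewhere, that of 5 smooth muscle genes was 648377 to 777320 in PA, and Shox2, a sinoatrial transcription factor, had a mean level of 11.40 in SA and 11.03 in PV. Of the other pacemaker genes, Tbx3 was 10.73 in SA and 10.60 in LV, and Isl1, well above background on 1 of 4 SA arrays, was 8.70 in PA.

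For 3 of the genes with a profile in common, the 250 bases before a RefSeq start (assembly GRCr8, 5′ to 3′ on the strand of the gene) are shown, so that their letters can be read beside that profile. The Upk1b window is chr11:75459131-75459380 on the plus strand, before a start that lies inside the annotated gene, so that part of the window is within it. The windows of Lrrn4 and Bnc1 end at the edge of the gene, with Lrrn4 at chr3:140603987-140604236 on the minus strand and Bnc1 at chr1:145352535-145352784 on the minus strand. Capitals mark matches, on either strand, to the TEAD core GGAATG or to the GC box GGGCGG.
Upk1b: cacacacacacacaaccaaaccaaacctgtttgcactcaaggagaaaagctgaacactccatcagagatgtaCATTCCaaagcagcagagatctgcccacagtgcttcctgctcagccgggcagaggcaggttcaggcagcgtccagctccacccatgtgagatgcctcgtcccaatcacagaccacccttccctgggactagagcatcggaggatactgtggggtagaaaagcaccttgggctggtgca
Lrrn4: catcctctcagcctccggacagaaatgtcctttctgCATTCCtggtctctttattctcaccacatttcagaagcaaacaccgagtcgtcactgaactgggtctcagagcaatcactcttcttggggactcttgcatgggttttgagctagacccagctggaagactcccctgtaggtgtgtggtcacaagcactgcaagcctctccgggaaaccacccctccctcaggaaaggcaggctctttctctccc
Bnc1: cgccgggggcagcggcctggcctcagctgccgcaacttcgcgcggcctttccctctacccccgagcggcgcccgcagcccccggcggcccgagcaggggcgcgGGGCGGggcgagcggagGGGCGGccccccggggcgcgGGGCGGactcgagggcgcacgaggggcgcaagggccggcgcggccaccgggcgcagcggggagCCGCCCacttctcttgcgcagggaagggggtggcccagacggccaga
The TEAD core stood once before Upk1b, at bases -178 to -173, and once before Lrrn4, at bases -214 to -209, counted back from -1 at the base before the start. It was in 2 of 7 promoters of the 10 genes and in 12.1% of 33469 promoters of the same length. The GC box occurred 4 times before Bnc1, the only one of the 7 with a match, against 30.5% of all promoters. Neither the WT1 core GCGTGGGAG (0.338% of all promoters) nor the AP-1 site TGANTCA (6.34%) was found before any of the 7, and none of the 4 motifs overlapped another in them. The 7 promoters were those of Upk3b, Upk1b, Wt1, Bnc1, Lrrn4, Tcf21 and Aldh1a2. Msln, Krt19 and Sall1 were not in the table. A match describes letters and not a bound factor.

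A group of 5 mesothelial genes had one profile in common. Msln, Upk1b, Krt19, Lrrn4 and Bnc1 were highest in LA, lowest in LV, and at intermediate levels in SA, PV, PA and RV. For each of the 5 genes, every LA array was above every array of the other regions (Bnc1 by its highest probe), which held for 1.55% of all genes tested. The genes had been chosen with these signals known, and nothing is read from that share.

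Msln encodes mesothelin, a surface protein by which mesothelial cells are recognized. Its level in LA was 13.91, 14.18, 14.17 and 13.85 on replicates 1 to 4. In SA it was 12.84, 11.89, 12.28 and 12.49, and in PV it was 12.65, 12.74, 11.22 and 12.31. LA was thus narrow and stood apart from both neighbors. In PA the level was 11.13, 11.28, 12.98 and 12.32, and in RV it was 12.02, 11.15 and 12.03. In LV it was 10.26, 8.59, 10.45 and 7.67. The 4 LV arrays were below all others, and the 4 middle regions overlapped with each other. Averaged by region, LA had 14.03 ± 0.17 (SD, n = 4). RV had 11.74 ± 0.51 (SD, n = 3). LV had 9.24 ± 1.34 (SD, n = 4) and varied the most. LA exceeded LV 27.6-fold and RV 4.90-fold, and RV exceeded LV 5.63-fold.

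Upk1b encodes a tetraspanin of the uroplakin group. It was 12.77, 12.85, 12.77 and 12.64 in LA and 8.60, 6.94, 9.02 and 6.88 in LV. RV lay between with 10.35, 9.29 and 10.22. The SA arrays ranged from 10.27 to 11.19, the PV arrays from 9.69 to 11.22 and the PA arrays from 10.21 to 11.99. LA exceeded LV 29.8-fold. The 6 regions had the same 2 gaps as for Msln, above the 4 middle regions and below them.

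Krt19 encodes a keratin of simple epithelia. Its level in LA was 9.82, 10.21, 10.60 and 9.87. In LV it was 6.40, 3.64, 6.10 and 3.45, and replicates 2 and 4 of LV were not well above background. RV had 8.09, 7.39 and 7.75. The middle regions ranged from 6.90 in PV to 9.03, also in PV. LA exceeded LV 37.4-fold, or 23.8-fold when the dim LV arrays were raised to the faintest signal called well above background on each.

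Lrrn4, a leucine-rich repeat membrane protein, was also highest in LA and lowest in LV, with smaller steps. It was 9.73, 10.03, 10.01 and 9.67 in LA, 8.95, 8.76, 8.59 and 8.92 in SA, and 7.44, 7.33, 7.58 and 7.24 in LV. RV was 8.40, 8.21 and 8.06, below every SA array. PV replicate 3, at 7.34, fell among the LV arrays, whereas the other PV arrays were at 8.30 to 8.71. LA exceeded LV 5.52-fold.

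Bnc1 encodes basonuclin, a zinc finger protein of mesothelial and other epithelial cells, and had 2 probes. The highest probe gave 8.65, 7.64, 8.37 and 8.31 in LA and 5.51, 4.86, 5.04 and 4.75 in LV. RV was 6.82, 5.68 and 6.34. The brighter of its probes was the highest on 20 of 23 arrays, and the other 3 were LV replicates 1, 2 and 4. LA therefore was set against LV within each probe. By the brighter one LA exceeded LV 12.4-fold, or 9.32-fold with the 2 dim LV arrays raised as for Krt19, and by the dimmer one 2.14-fold. The probes correlated at r = 0.69 over the arrays. By the dimmer one, the mean was 6.10 in LA and between 4.92 in PV and 5.60 in RV elsewhere. Both probes had their highest mean in LA, but the dimmer one had its lowest mean in PV and not in LV, and by it the lowest LA array, 5.94, was not above the highest array elsewhere, 5.96.

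**Figure D1:**
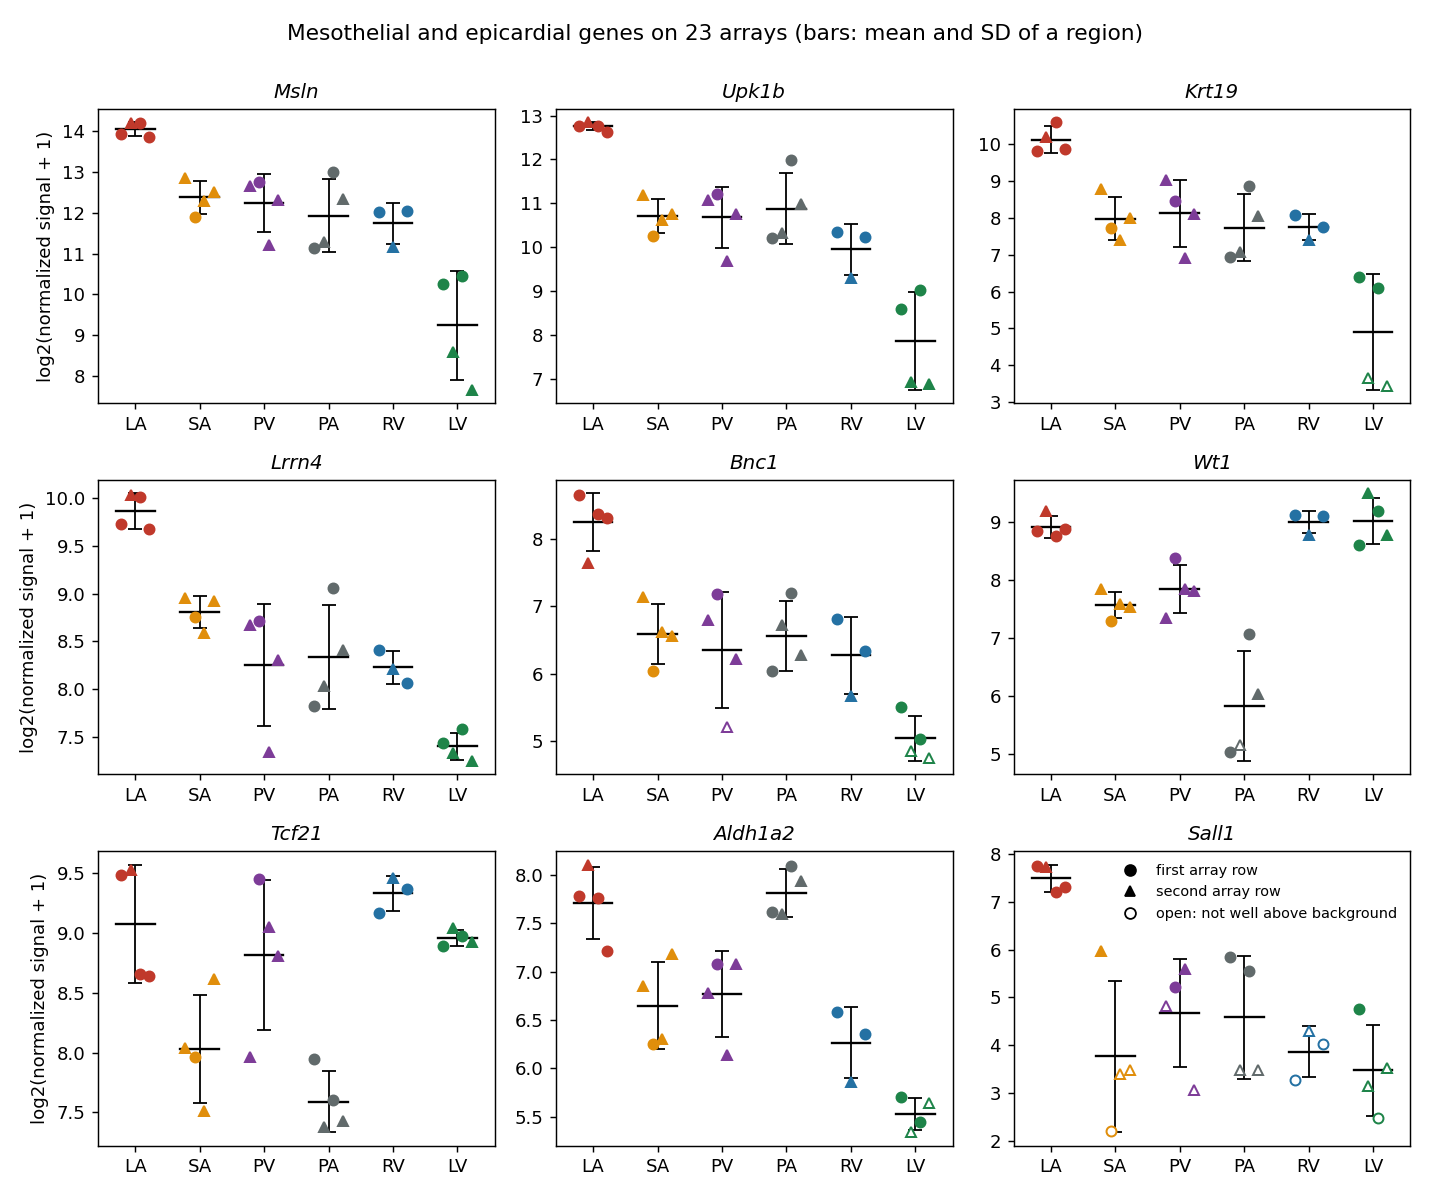
Level of each gene, as log2 of the normalized signal plus 1, on the arrays of 6 regions; points are arrays, horizontal lines the mean and bars the SD. In the panels from Msln to Bnc1 the 4 LA arrays lie above all others and LV is lowest, while Wt1 and Tcf21 have their lowest means in PA. Open symbols, arrays not well above background, make up 13 of the 23 for Sall1.

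The difference between LA and V was 3.54 ± 0.47 for Msln, 3.85 ± 0.42 for Upk1b, 3.80 ± 0.54 for Krt19, 2.59 ± 0.33 for Bnc1 and 2.05 ± 0.23 for Lrrn4 (log2, ± SE in the fit of all 23 arrays). Bnc1 was taken by its highest probe here, which was the dimmer one on LV replicates 1, 2 and 4. With normexp it was 2.63 for Krt19, 1.47 for Bnc1 and 1.61 for Lrrn4, against 3.37 for Msln and 3.52 for Upk1b, and with dim arrays raised it was 3.48 for Krt19. SA differed from V by 1.89 for Msln and by 0.93 for Bnc1, with the other 3 between. In PV the range over the 5 genes was 0.44 for Lrrn4 to 1.80 for Krt19, and in PA it was 0.52 for Lrrn4 to 1.97 for Upk1b. With normexp the SA difference was 0.88 for Krt19 and 0.49 for Bnc1, against 1.73 for Msln, and the PV difference of Krt19 was 0.91. Over all arrays, each region outside the ventricles was above V on average for all 5 genes (Bnc1 by its highest probe), and LA by the widest margin. By the dimmer Bnc1 probe the means were 6.10 in LA, 5.29 in SA, 4.92 in PV and 5.11 in PA. Against 5.00 in LV and 5.60 in RV, only LA was above both ventricles by that probe. The SA difference of all but Lrrn4 depended on the array row, with 3 of the 4 SA arrays in the second. Within the first row it was 0.69 for Msln, 0.72 for Upk1b, 0.64 for Krt19 and 0.11 for Bnc1. Within the second row it was 2.90 for Msln, 2.76 for Upk1b, 1.94 for Krt19 and 1.46 for Bnc1, with dim arrays raised. For Lrrn4 it was 0.89 within the first row and 1.07 within the second. For PA minus V, Msln differed by 0.86 within the first row and by 2.16 within the second.

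LV was below RV for the same 5 genes. The log2 difference LV minus RV was -2.49 ± 0.57 for Msln, -2.09 ± 0.51 for Upk1b, -1.23 ± 0.40 for Bnc1 and -0.83 ± 0.28 for Lrrn4. Within 1 probe of Bnc1 it was -1.25 for the brighter with dim arrays raised and -0.53 for the dimmer. For Krt19 it was -2.85 ± 0.66, or -2.20 with the 2 dim LV arrays raised as above. With normexp, another background correction, it was -1.13 for Krt19, -0.42 for Bnc1 and -2.23 for Msln. For each of the 5 (Bnc1 by its highest probe), and for Aldh1a2 and Tcf21, the lowest RV array was above the highest LV array, as for 5.43% of all genes tested. By the dimmer Bnc1 probe the 2 regions overlapped, with LV replicate 1 at 5.51 and RV replicate 2 at 5.40. Without RV replicate 2 the differences were -3.02 for Krt19, -2.79 for Msln and -2.43 for Upk1b.

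Within LV, replicates 1 and 3 had more of Msln, Upk1b and Krt19 than replicates 2 and 4. Replicates 1 and 3 lay in the first row of their slides and replicates 2 and 4 in the second, so piece and row cannot be told apart there. Within the first row, LV minus RV was -1.67 for both Msln and Krt19 (2 LV and 2 RV arrays). Within the second row it was -3.02 for Msln (2 LV arrays and 1 RV array). For Krt19, dim on both of these LV arrays, it was -2.55 with each raised to its faintest signal called well above background. For LA minus V, Msln differed by 2.79 within the first row and by 4.54 within the second. Bnc1 differed by 2.52 and 2.40. The direction was the same in both rows for all 5 genes. In RV the only second-row array, replicate 2, was likewise the lowest for Msln, Upk1b and Krt19. In SA a second-row array, replicate 1, was the highest for 7 of the 9 genes.

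Every region but LV had an array that was highest for 6 or more of the 9 genes. PA replicate 3 was the highest PA array for 7 of the 9 genes and PA replicate 1 the lowest for 6. PV replicate 2 was the highest PV array for 6 genes and PV replicate 3 the lowest for 6. LA replicate 2 was the highest LA array for 6 genes and replicate 4 the lowest for 5, but for Upk1b the 4 levels spanned only 12.64 to 12.85. RV replicate 1 was the highest RV array for 6 genes and replicate 2 the lowest for 6. The mean of 6 measured mesothelial genes, the 5 above and Wt1, each centered on its own mean over the arrays, had an SD of 0.10 in LA (n = 4) and of 0.34 to 0.74 in the other regions.

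**Figure D2:**
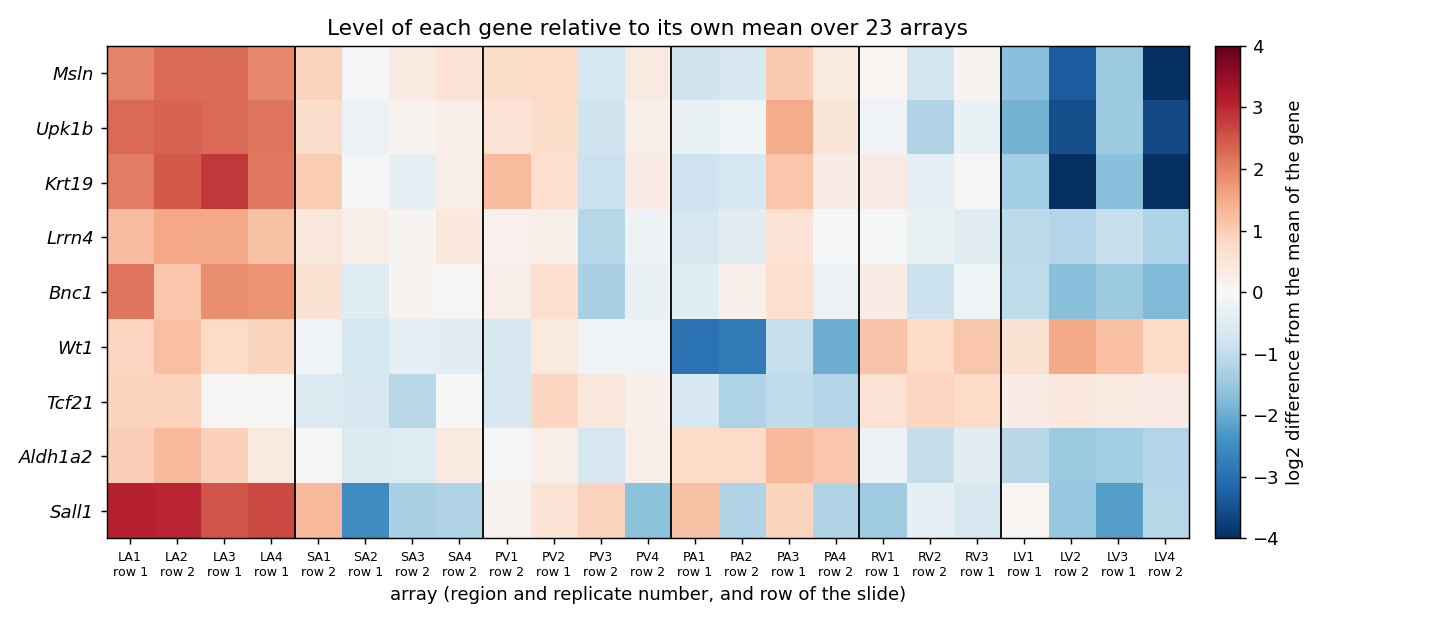
Level of each gene minus its own mean over 23 arrays, as a log2 difference, with arrays in columns ordered by region and the row of the slide under each. Msln, Upk1b and Krt19 look alike from array to array, with LV replicates 2 and 4 the lowest and the 4 LA arrays the highest.

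Wt1 and Tcf21 had another profile. Wt1 encodes the zinc finger protein by which epicardial cells are commonly traced, and Tcf21 a helix-loop-helix factor of epicardial cells and of cardiac fibroblasts. In both, LA overlapped with the ventricles and PA had the lowest mean.

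The Wt1 level was 8.84, 9.19, 8.75 and 8.88 in LA, 8.61, 9.49, 9.18 and 8.78 in LV, and 9.12, 8.78 and 9.10 in RV. These 3 regions overlapped. It was 7.84, 7.30, 7.58 and 7.53 in SA, 7.35, 8.38, 7.84 and 7.80 in PV and 5.03, 5.15, 7.07 and 6.03 in PA. Each SA and PV array was below each array of LA, LV and RV, and each PA array was below all of these. PA replicate 2 was not well above background. LA minus V was -0.09 ± 0.29, whereas PA minus V was -3.19 ± 0.29 (log2, ± SE). Unlike Msln, Wt1 had no gap between LV and RV, with a difference of 0.02 ± 0.36.

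Tcf21 was 9.48, 9.53, 8.66 and 8.64 in LA, 8.89, 9.04, 8.98 and 8.92 in LV, and 9.17, 9.46 and 9.37 in RV. The LA arrays split into 2 higher and 2 lower ones, on both sides of LV. SA was at 7.51 to 8.61, PV at 7.96 to 9.45 and PA at 7.38 to 7.95. The largest difference from V was in PA, -1.55 ± 0.25 (log2, ± SE). The higher LA arrays, replicates 1 and 2, lay on 1 slide and the lower ones on the 2 other slides, and the part of the slide in this split was not tested.

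Among the 9 genes, the pairs most alike over the 23 arrays were Msln and Krt19 (r = 0.99) and Msln and Upk1b (r = 0.98). Once the mean of each region was taken off, the correlation of Msln was still 0.97 with Upk1b and 0.94 with Krt19. For Msln and Wt1 it was -0.04 over all arrays and 0.45 within regions. For Wt1 and Tcf21 it was 0.80 over all arrays and 0.24 within regions. The arrays share regions, slides and possibly animals, and these values are descriptions.

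**Figure D3:**
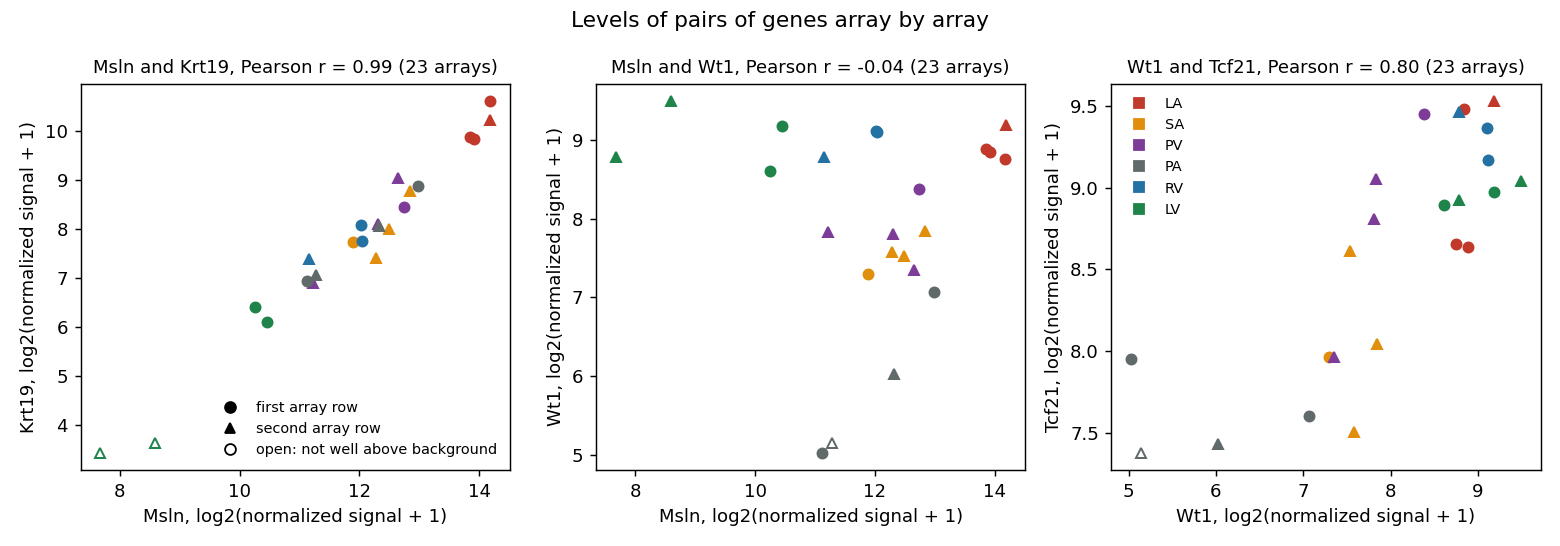
Levels of Msln and Krt19, Msln and Wt1, and Wt1 and Tcf21 on the 23 arrays, both axes as log2 of the normalized signal plus 1, colored by region. Msln and Krt19 fall on a line from LV to LA (r = 0.99), Msln and Wt1 do not (r = -0.04), and Wt1 and Tcf21 are lowest together in PA (r = 0.80).

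Aldh1a2 encodes the retinaldehyde dehydrogenase that makes retinoic acid in the epicardium. It was 7.79, 8.11, 7.76 and 7.21 in LA and 7.61, 7.60, 8.10 and 7.94 in PA. These regions overlapped and were above each array of the other 4. PV was at 6.14 to 7.08, SA at 6.25 to 7.18 and RV at 5.86 to 6.58. LV was lowest, with 5.70, 5.34, 5.44 and 5.64, and 2 of its arrays were not well above background. LA minus V was 1.82 ± 0.22 and PA minus V was 1.91 ± 0.22 (log2, ± SE). With normexp LA minus V was 0.90. Aldh1a2 thus had the LV minimum of the 5 mesothelial genes together with a PA level near that of LA, which those 5 lacked. The keratin genes Krt8 and Krt18, tested below, shared both traits. Krt8 had means of 7.41 in LA, 7.70 in PA and 4.17 in LV, and Krt18 of 10.57, 10.70 and 7.44. Its correlation with Upk1b was 0.83 and with Wt1 -0.45 over the 23 arrays.

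Sall1 encodes a zinc finger repressor known for its role in the kidney and in progenitor cells of the heart. In LA it was 7.75, 7.73, 7.21 and 7.31, well above background on each array. Outside LA it was well above background on 1 of 4 SA arrays (5.98), 2 of 4 PV arrays (5.21 and 5.60), 2 of 4 PA arrays (5.84 and 5.55), 1 of 4 LV arrays (4.75) and none of the 3 RV arrays (3.26, 4.30 and 4.03). All other values lay between 2.20 and 4.82 and have no order among themselves. LA exceeded RV 10.6-fold with each RV array taken at no less than its faintest signal called well above background. With their dim arrays treated in the same way, LA exceeded SA 7.13-fold, LV 7.45-fold, PV 5.25-fold and PA 5.19-fold. With dim arrays raised, LA minus V was 3.33 within the first array row and 3.0 within the second, where no ventricular array was well above background. With normexp it was 1.42 over all arrays.

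The Sall1 array nearest to the lowest LA value was SA replicate 1, with a gap of 1.23 on the log2 scale. For Msln and Upk1b the nearest array outside LA was PA replicate 3, with gaps of 0.87 and 0.65. Msln was well above background on all 23 arrays and Sall1 on 10.

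**Figure D4:**
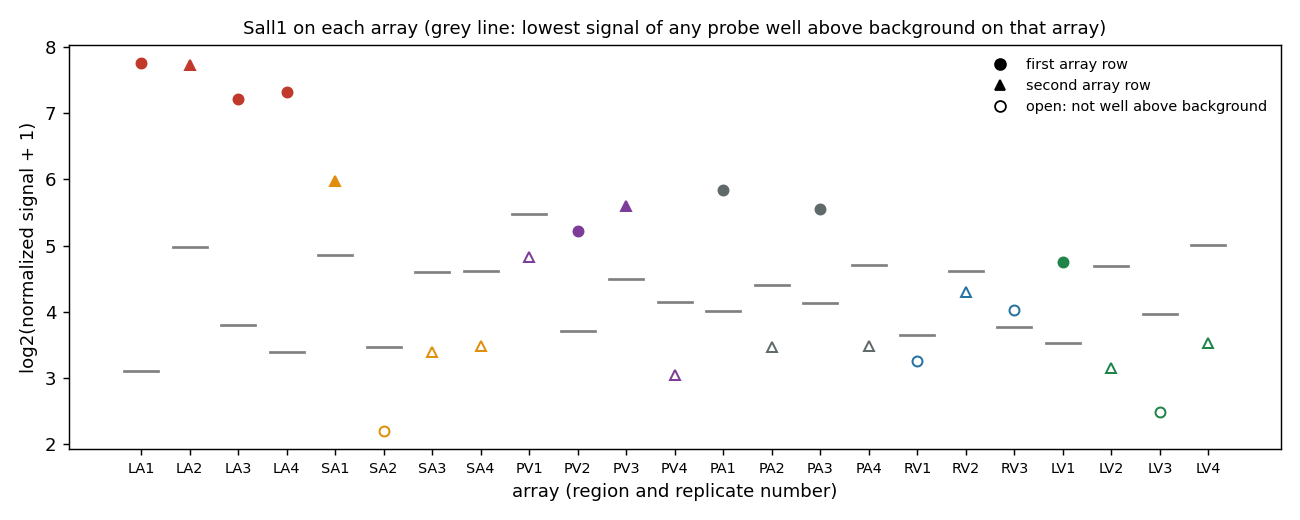
Sall1 on each array, as log2 of the normalized signal plus 1, with a grey line at the lowest signal of any probe well above background on the same array. The 4 LA arrays are at 7.21 to 7.75, and 13 of the 19 other arrays are open symbols.

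Genes that were not among the 10 were tested with limma, with Benjamini-Hochberg adjustment over all 16089 genes tested. Of 24 other genes known from mesothelial cells, 22 were tested. In LA, 10 were higher than in V and 2 lower, against 16.9% of all genes higher and 18.4% lower (35.4% in either direction). Their median log2 difference was 0.99, against -0.09 for all genes. Among them were keratins 8 and 18, the partners in the simple epithelial cytoskeleton. Krt18 rose by 3.05 ± 0.33 (adjusted p = 4.64e-07). Krt8 rose by 3.11 ± 0.38 (adjusted p = 2.28e-06), and the difference was 2.60 with dim arrays raised and 1.14 with normexp. Of the 7 ventricular arrays, 2 were well above background for Krt8. Nkain4, a membrane protein, rose by 2.79 ± 0.17 (adjusted p = 2.42e-10) and Tm4sf5, a tetraspanin relative, by 2.66 ± 0.24 (adjusted p = 5.65e-08). The 2 lower genes, named after their values were seen, were Slpi, a secreted protease inhibitor, and Itln1, an intelectin, which was well above background on 1 of 23 arrays.

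In SA, 6 of the 22 were higher and 1 lower, against 12.3% and 15.8% of all genes (28.1% together). Tm4sf5 rose by 2.97 ± 0.24 (adjusted p = 1.7e-08) and Nkain4 by 1.34 ± 0.17 (adjusted p = 6e-06, and 0.101 within the first array row). In PV, 7 were higher and 1 lower, against 15.6% and 18.3% (33.9% together). In PA, 10 were higher and 4 lower, against 30.0% and 28.4% (58.4% together). Krt8 rose there by 3.40 ± 0.38 (adjusted p = 1.48e-07), or by 2.89 with dim arrays raised, and Rarres2, the adipokine chemerin, by 2.16 ± 0.10 (adjusted p = 1.88e-13). Tm4sf5 in PA was at -0.02 ± 0.24 (adjusted p = 0.947), and Gpm6a at -0.23 ± 0.34 (adjusted p = 0.604).

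Cdh1, the epithelial cadherin, was well above background on all 4 PV arrays, with a mean of 6.81 ± 0.49 (SD, n = 4), on 1 SA array and on no other. With dim arrays raised it was 6.32-fold higher in PV than in V, where none of the 7 arrays was well above background. Without raising, the log2 difference was 3.96 (adjusted p = 4.05e-08 with limma). With normexp the log2 difference was 1.16.

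Between the ventricles, 84 genes were called, 0.522% of those tested, 0.298% of those tested higher in LV and 0.224% lower. Of the 22 mesothelial genes Nkain4 was the only one called. Its LV arrays averaged 7.51 ± 0.49 (SD, n = 4) and lay below the RV arrays, at 8.57 ± 0.27 (SD, n = 3). The difference was -1.07 ± 0.21 (adjusted p = 0.0196 with limma). The call was lost without LV replicate 2 (adjusted p = 0.0618), RV replicate 1 (0.08) or RV replicate 3 (0.0943), in a fit of only these arrays (0.386), with the slide as a block (0.0519) and within either array row (0.812 and 0.207). The difference kept its sign in each of these. The median of the 22 genes was -0.11, against 0.01 for all genes. Leaving out RV replicate 2 lowered the 84 genes to 40, RV replicate 1 to 45 and LV replicate 2 to 52.

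**Figure D5:**
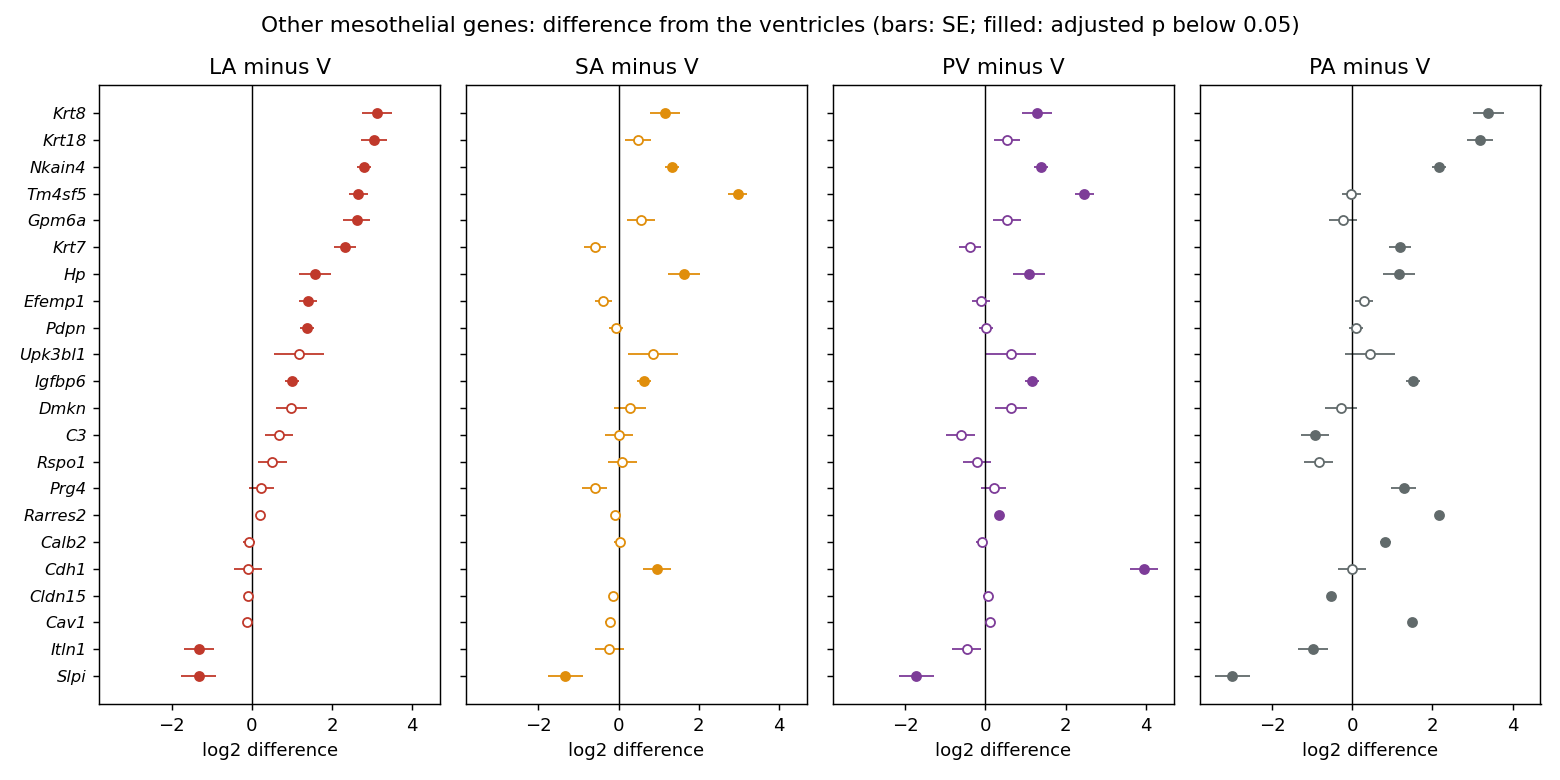
Log2 difference from V of the 22 other mesothelial genes in LA, SA, PV and PA, with the SE as bars and filled symbols for adjusted p below 0.05 (limma). In LA 10 genes are higher and 2 lower, and Cdh1 lies far to the right in PV. Its plotted value there is against ventricular signals not well above background, and with dim arrays raised the difference is 2.66.

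Of 14 regulators of the epicardium and of the cells it gives rise to, 13 were tested. In LA, 6 were higher than V and 4 lower, where 16.9% and 18.4% of all genes were. The counts were 6 and 4 in SA (12.3% and 15.8% of all genes), 7 and 3 in PV (15.6% and 18.3%) and 8 and 5 in PA (30.0% and 28.4%). Tbx18 is a T-box factor of the epicardium and of the sinus horns. Its LV arrays averaged 8.55 ± 0.27 (SD, n = 4), and its LA arrays averaged 10.69 ± 0.19 (SD, n = 4). It rose by 1.84 ± 0.15 in LA (adjusted p = 1.73e-08) and by 3.38 ± 0.15 in PA (adjusted p = 1.7e-13). Osr1, a zinc finger factor of mesoderm, rose by 2.40 ± 0.21 in LA and by 5.81 ± 0.21 in PA (adjusted p = 3.55e-08 and 5.55e-15). The nuclear receptors Nr2f1 and Nr2f2 rose in LA by 1.70 ± 0.10 and 1.80 ± 0.09 (adjusted p = 1.56e-10 and 3.07e-11). Nr2f2 had means of 12.03 in LA, 11.90 in SA, 12.02 in PV and 10.23 in LV. In the same order Nr2f1 had 11.40, 10.76, 11.16 and 9.84, and Osr1 had 8.75, 9.40, 9.83 and 6.14. These rises were thus not particular to LA. Scx, a tendon and valve factor, fell by 1.28 in LA (adjusted p = 3.24e-06, and 0.0792 within the second array row) and by 1.66 in PV (adjusted p = 1.3e-07). Sema3d, a secreted guidance protein, differed in PA, by 5.29 ± 0.28 (adjusted p = 1.94e-12), and was at 0.25 ± 0.28 in LA (adjusted p = 0.533). None of the 13 was called between LV and RV.

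Aldh1a2 takes part in a pathway of which 19 other genes were tested. In LA, 4 were higher than V and 1 lower, in SA 3 and 3, in PV 3 and 2, and in PA 10 and 5. Of all genes, 35.4%, 28.1%, 33.9% and 58.4% were called in these regions in either direction, so that the LA and PV counts of 5 among 19 were below the share of all genes. In PA, where 4 of the 19 were not called, the count was above that share, and in SA it was close to it. Retinol is carried by Rbp4, which rose by 3.71 ± 0.36 in SA (adjusted p = 1.73e-07), by 4.27 ± 0.36 in PV (adjusted p = 2.11e-08) and by 5.58 ± 0.36 in PA (adjusted p = 4.16e-11). Rdh10 makes the substrate of Aldh1a2. It rose by 1.17 ± 0.13 in LA (adjusted p = 9.07e-07) and by 2.19 ± 0.13 in SA (adjusted p = 1.99e-10). Crabp2, which carries retinoic acid to the nucleus, rose by 1.71 ± 0.29 in LA and by 1.82 ± 0.29 in PA (adjusted p = 9.45e-05 and 1.49e-05), and Aldh1a2 was highest in the same 2 regions. The sister enzyme Aldh1a1 was at -0.30 ± 0.20 in LA (adjusted p = 0.274) and fell by 1.58 in PA (adjusted p = 9.3e-07). Of the receptors, Rxrg fell by 5.98 and Rxra by 2.97 in PA (adjusted p = 6.61e-19 and 5.04e-14). Rarb fell by 0.29 there (adjusted p = 0.00972), a call lost within both array rows (adjusted p = 0.0537 and 0.434), whereas Rarg rose by 1.0 ± 0.14 and Rara by 0.69 ± 0.13 (adjusted p = 3.96e-06 and 8.19e-05). No gene of the pathway was called between LV and RV.

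Of 16 relatives of the 10 genes, 14 were tested, and in LA 3 were higher than V and 1 lower, a share below the 35.4% of all genes called. Lrrn2, a paralog of Lrrn4, rose by 3.33 ± 0.20 in LA, 2.79 ± 0.20 in SA and 2.57 ± 0.20 in PV (adjusted p = 2.04e-10, 2.97e-09 and 8e-09), and was at 0.29 ± 0.20 in PA (adjusted p = 0.232). Sall2 rose by 1.02 ± 0.06 in LA and 1.14 ± 0.06 in PA (adjusted p = 2.2e-10 and 3.19e-12). Of the other uroplakins, Upk2 was not well above background on any array, Upk1a was at -0.31 ± 0.18 in LA, and Upk3a at -0.51 ± 0.25.

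Markers of other cells that such a piece of tissue could hold were read beside these results. Of all genes tested, 16.9% were higher and 18.4% lower than V in LA, and 12.3% and 15.8% in SA. The shares were 15.6% and 18.3% in PV and 30.0% and 28.4% in PA, and 0.522% were called between LV and RV. Nothing is read from counts near these shares. Of 6 markers of urothelium and squamous epithelium none was higher than V and 1 was lower in each of LA, SA, PV and PA. Of 9 tested lung epithelium markers none was higher than V in LA, SA, PV or PA and 2, 1, 4 and 2 were lower, and Epcam was well above background on 1 of 23 arrays. The summed signal of the 10 measured, tested or not, was 974.4 to 1761.2 in LA and 1576.3 to 2336.5 in LV. Fibroblast markers, Tcf21 among them, summed to 225208 to 412946 in LA, 225962 to 304022 in LV and 586481 to 615228 in PA, and 1 of 9 was higher and none lower in LA than in V. In SA 3 were higher and 4 lower, in PV 4 were higher and none lower, and in PA 5 were higher and 3 lower. Smooth muscle markers summed to 4554.8 to 6263.4 in LA, where 4 of 5 were lower than V, and all 5 were higher than V in SA, PV and PA. Of 6 adipocyte markers 5 were higher and none lower than V in PV, 4 higher and 1 lower in SA, 4 higher and 2 lower in PA, and 2 higher and 1 lower in LA. Of 4 endothelial markers 3 were lower than V in LA, SA and PA and 2 in PV. Of 5 atrial myocyte markers 4 were higher in LA, SA and PV and 3 lower in PA, and of 5 ventricular ones 4 were lower in LA, SA and PA and 3 in PV, with 1 higher in PA. Of 5 pacemaker markers 3 were higher and none lower in SA and in PV, 2 higher and 2 lower in PA, and 1 higher and 2 lower in LA. Of 5 kidney markers, read because Sall1 is known from that organ, 1 was higher and 1 lower in LA, 2 were lower in SA and 3 in PV, and 1 was higher in PA. Between LV and RV, 1 atrial and 1 ventricular myocyte marker were higher in LV, and no marker of the other cell types in this paragraph was called. Their part in the differences of the 10 genes was not tested.

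The genes whose profile was most like the mean of the 6 measured mesothelial genes, Wt1 included, were named from 13102 candidates, with r over 23 arrays that share regions and slides. They were Wfdc21 (r = 0.97), Clic3 (r = 0.95), Gpm6a (r = 0.94), Bicdl1 (r = 0.93), Osr2 (r = 0.92), Tcf23 (r = 0.90), Pon3 (r = 0.89) and Plagl1 (r = 0.89). Wfdc21, a secreted protein with a protease inhibitor domain, had means of 14.25 ± 0.38 in LA, 11.43 ± 0.58 in RV and 9.55 ± 1.54 in LV. Osr2, a zinc finger factor related to Osr1, was 8.06 ± 0.22 in LA and 3.84 ± 0.63 in LV, with 1 of the 4 LV arrays well above background. The LV arrays of Wfdc21 ranged from 7.71 to 10.84, as those of Msln ranged from 7.67 to 10.45.

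Sall1 was most like Cd82 (r = 0.86), Nrg1 (r = 0.83), Pon3 (r = 0.83) and Adgrg6 (r = 0.81). Nrg1, the growth factor neuregulin, was 8.42 ± 0.16 in LA and between 5.53 and 6.45 on average in the other regions. Tcf21 was most like Aldh1a1 (r = 0.92), Slc43a3 (r = 0.90), Pdgfra (r = 0.89) and Ifitm1 (r = 0.87), of which Pdgfra is a receptor of fibroblasts. For Aldh1a2 they were Slc2a8 (r = 0.94), C4a (r = 0.94), Rhpn2 (r = 0.93) and Il17re (r = 0.92). Of the 23 Sall1 values behind its correlations, 13 were not well above background.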

How the data were processed

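Total RNA of 23 tissue samples was hybridized to one-color Agilent rat arrays, 1 sample an array. The deposited values are intensities that the authors obtained with Agilent Feature Extraction 11.0.1.1 and scaled so that the 90th percentile was the same on each array (3984 to 3988 here). Scaled scanner intensities were within 2% of them for at least 99.57% of probes on each array. Array designs carry no read depth, and the number of arrays limits the precision.

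Of 45598 probes, 21047 were named through their accession, for 16544 genes. Where a gene had several probes, the brightest one on an array gave its value, as log2(intensity + 1), and 16089 genes above 4 on at least 1 array were tested. One fit of all 23 arrays with limma 3.58.1 in R 4.3.3 stood in for the analysis of variance of the methods. V was the mean of the LV and RV coefficients, and a gene was called at an adjusted p below 0.05 (Benjamini-Hochberg). On simulated data for LA minus V with 16089 genes, 82% of 200 genes changed by 1 on the log2 scale were recovered, and 3.53% of the calls were false. Figures were drawn with Python 3.11.15 and matplotlib 3.10.9.

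The 10 genes and all lists were chosen with earlier results of these data known. From each list, up to 4 called genes per comparison were named, by size of the difference, provided that the higher region was well above background throughout and that no arrays of the groups compared overlapped. Other genes were named for comparison after their values were seen. Genes with a like profile were the 8 (mesothelial mean) or 4 (Sall1, Tcf21, Aldh1a2) with the highest r. Marker lists were those of mesothelium, fibroblast, lung epithelium, adipocyte, endothelium, smooth muscle, atrial and ventricular myocyte, sinoatrial pacemaker, urothelium and squamous epithelium, and kidney. The mesothelium list consists of the genes described, and nothing was read from its counts. Muc16, Muc1, Mef2c, Cyp26c1, Lrrn1, Sall4, Dpt, Scgb3a2, Plin1 and Egfl7 were not analysed here. Alternatives covered the source and scaling of the signals, normexp background correction (offset 50, on median signals), a pseudocount of 16, filters, probe choice, blocks, and arrays left out. Fits on 1 array row, and differences with each value raised to the faintest signal called well above background on its array, and each Bnc1 probe on its own were chosen after seeing the data.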

Additional observations from a re-analysis of the deposited data

How the results depend on the processing

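Of 720 recomputed differences of the 9 measured genes, 10 changed sign, all of them of Wt1, Tcf21 or Sall1. In 8 the reported difference had been smaller than its SE. The other 2 were Tcf21 in PV minus V, 0.35 in the first array row, and Sall1 in PA minus V, -0.34 in the second. Another 34 moved by more than the SD between replicates: 11 with normexp, 12 in the first array row and 11 in the second. Differences within a slide were not among the 720. On the slide where PV had only replicate 3, PV minus V was -0.55 for Bnc1 and -0.39 for Lrrn4, opposite in sign to the differences over all arrays. The number of genes called between LV and RV, 84, was 137 among genes well above background and 12 in a fit of only those arrays. Within the first array row 3243 genes were called for LA, 758 for SA, 1638 for PV and 5 between the ventricles, with 2 and 3 other mesothelial genes higher in SA and PV. Within the second row the counts were 1798, 2456, 2659 and 53. In these fits SA and PV in the first row, and LA and RV in the second, had 1 array, which is assumed to vary like the others. Fewer arrays entered, and other causes were not tested.

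Leaving out 1 array gave 4980 to 5733 genes for LA, 3919 to 4600 for SA, 4621 to 5497 for PV, 8974 to 9413 for PA and 40 to 105 between the ventricles. The other mesothelial genes higher were 10 to 11 in LA, 4 to 6 in SA, 6 to 7 in PV and 10 in PA. For Msln, LA minus V was 3.28 to 3.74 and LV minus RV -2.90 to -1.97. Samples with the same replicate number did not deviate together (r from -0.376 to 0.336 over 55 pairs). With the replicate number as a block, 5553 genes were called for LA, 4384 for SA, 5231 for PV, 9290 for PA and 79 between the ventricles. Sall1 was not well above background on 13 of the 19 arrays outside LA, which limits its folds there. For the named list genes, 100 calls gave 3700 values over the same settings. None changed direction, and 71 values, from 30 of the calls, were no longer past the threshold. Normexp lowered differences of dim genes among these, to 1.21 for Tm4sf5 and 0.35 for Rdh10 in LA minus V, both still called.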
